A study of Mus musculus with 8 samples.

Results

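Fatty acid oxidation in mitochondria and peroxisomes was examined in the ageing lupus-prone kidney through 36 genes. They were chosen by name, with earlier results of these data known. They comprise the enzymes that activate fatty acids, the carnitine shuttle, the mitochondrial and peroxisomal oxidation cycles, and the proteins that serve them. A gene was read from the probe that the platform annotation gives its symbol, and 34 of the 36 were on a named probe, out of 19505 named genes and 22206 probes. Acsl1, a long-chain acyl-CoA synthetase, and Etfb, a subunit of the electron transfer flavoprotein, were not analysed here. Each of the 34 had 1 probe. The samples were kidneys of NZBWF1 mice, F1 hybrids of New Zealand Black with New Zealand White mice and a model of lupus nephritis. Per the design text, kidneys came from 4 mice at 28 weeks of age, labelled replicates 6 to 9, and from 4 mice at 8 weeks, labelled replicates 1 to 4. Each Clariom S Mouse array was taken as 1 mouse, although no label names an animal. The labels name no treatment, engineered allele or other strain for either age, give no sex and no measure of kidney disease, and hold no non-autoimmune strain of the same ages, so age and disease cannot be told apart. The comparison asks how kidney mRNA levels differ between the ages. Levels are given on the log2 scale of robust multi-array averaging (RMA), and differences are 28 weeks minus 8 weeks. Each adjusted p was computed by limma, Benjamini-Hochberg adjusted over every probe, and a gene was called where it was under 0.05. Precision is limited by the few arrays.

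Fatty acids are the main fuel of the proximal tubule, the segment that reclaims most of the filtered load. A fatty acid is first joined to coenzyme A (CoA) by a synthetase. Long chains then enter the mitochondrion as carnitine esters, and repeated rounds of dehydrogenation, hydration, dehydrogenation and thiolysis cut them to acetyl-CoA while electrons pass to the respiratory chain. Peroxisomes shorten very long and branched chains by a similar cycle that begins with an oxidase and yields hydrogen peroxide, which catalase removes. Many of these genes are activated by the nuclear receptor PPAR-alpha.

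At 28 weeks most of these genes had a lower mean than at 8 weeks, and 2 of them passed the threshold. Acox3, an acyl-CoA oxidase of branched chains, fell 2.22-fold, and Nudt19, a peroxisomal CoA diphosphohydrolase, fell 2.17-fold. Of the 34 genes 31 had a negative log2 difference and 3 a positive one, where 51.3% of all probes had a negative one. Among the 6009 probes at least as bright as the second dimmest of these genes, 50.7% had a negative one. The median difference over the 34 was -0.48, which is 1.39-fold lower at 28 weeks, against -0.01 over all probes. Single genes ranged between -1.15 for Acox3 and 0.36 for Etfdh, the enzyme that hands electrons from the flavoprotein to ubiquinone. The 2 calls stand beside 0.968% of all probes called in either direction, 0.522% called lower and 0.446% called higher. Because the genes were chosen with earlier results known, such counts beside all probes, here and below, are description and not a test.

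In 12 of the 34 genes all 4 arrays at 28 weeks lay below all 4 at 8 weeks, an arrangement found in 4.33% of all probes. In 1 gene, Etfdh, all 4 arrays at 28 weeks lay above, as in 4.38% of all probes. At an unadjusted p under 0.05, 19 genes were lower and 1 higher, where 6.63% of all probes were lower and 8.36% higher by that measure. The 95% confidence interval of the difference lay wholly below 0 for those 19 genes and wholly above 0 for Etfdh. RNA of the whole kidney was measured, so fewer cells that carry a transcript and less of it per cell cannot be told apart in any of these values. The forest of differences shows that the lower means were not kept to one organelle.

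**Figure D1:**
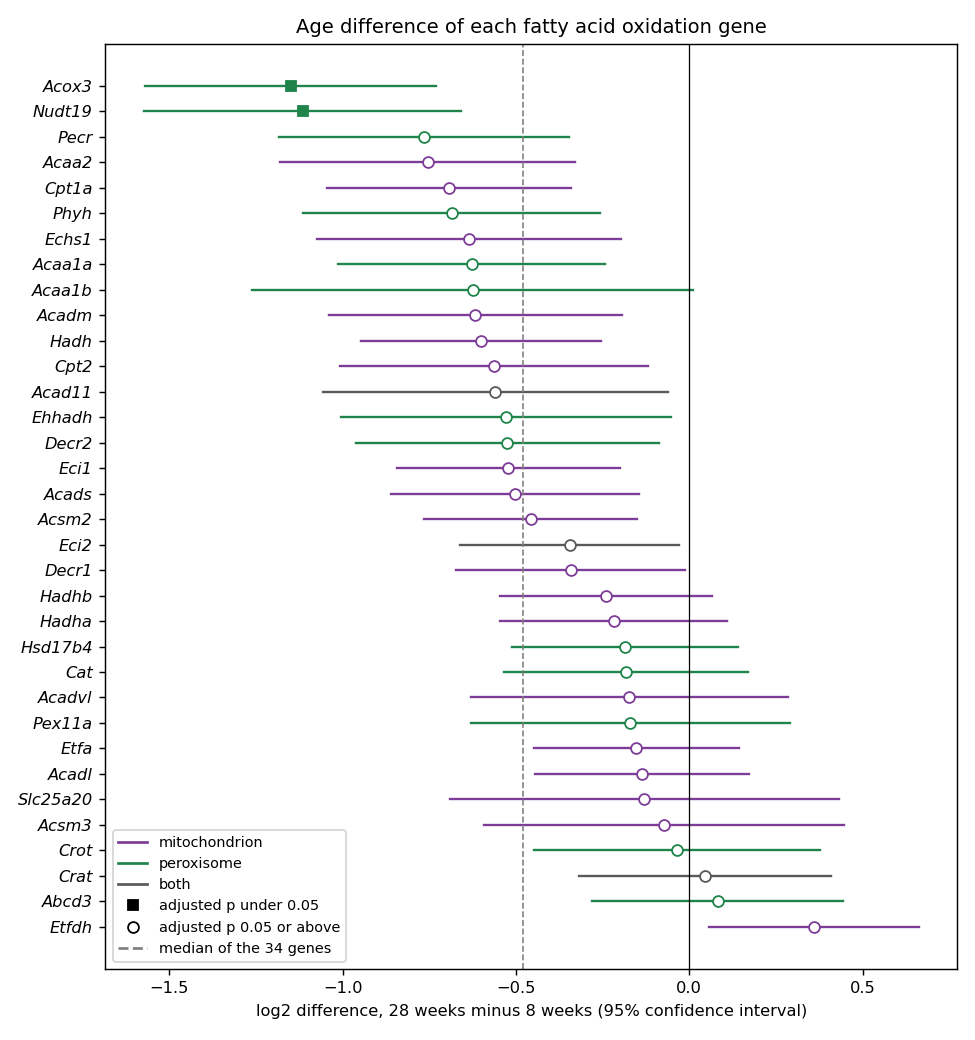
Log2 difference in mean, 28 weeks minus 8 weeks, of each of the 34 genes (rows, sorted), with its 95% confidence interval from limma as a line; colour gives the organelle and a filled square an adjusted p under 0.05. Acox3 and Nudt19 are the 2 filled squares at the top, at -1.15 and -1.12, the dashed line is the median of -0.48, and Etfdh is the lowest row, at 0.36.

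Some arrays stood apart from their age group. Across all probes 28-week replicate 7 correlated more closely with the mean 8-week profile (r = 0.994) than with the mean of the other 28-week arrays (r = 0.989), and 8-week replicate 1 was the 8-week array least like its own group (r = 0.986). With the other arrays of its age 28-week replicate 6 correlated about as well as replicate 7 did (r = 0.989 for each). Replicate 6 was also the array least like the mean 8-week profile (r = 0.981). Array medians lay between 5.98 and 6.14. The kidney label was checked on Umod of the thick ascending limb, which lay between 18.43 and 18.72 at 28 weeks and between 18.31 and 18.52 at 8 weeks, and on the proximal tubule gene Slc34a1, between 17.45 and 17.96 at 28 weeks and between 18.08 and 18.57 at 8 weeks. The 6 measured markers of fat tissue stayed between 2.87 and 4.11 at 28 weeks and between 2.90 and 4.49 at 8 weeks, near the lowest deposited value of 2.31. All 11 measured macrophage markers had a higher mean at 28 weeks; by limma none passed the threshold and 11 had an unadjusted p under 0.05. Taken over genes relative to the 8-week level, their median stood at 3.70 for 28-week replicate 6, 0.19 for replicate 7, 3.29 for replicate 8 and 2.49 for replicate 9, against -0.15 to 0.33 in the 8-week mice.

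The same median over the 34 oxidation genes was -0.36, -0.27, -0.46 and -0.56 in 28-week replicates 6, 7, 8 and 9, against -0.04, 0.04, -0.06 and 0.04 in 8-week replicates 1 to 4. All 4 mice at 28 weeks lay below all 4 at 8 weeks by this measure, with replicate 7 nearest to the young mice. In that mouse the macrophage median was within the 8-week range, with 3 of the 11 markers above it, 3 below and 5 within. The oxidation median was below it, with 18 of the 34 genes below all 8-week mice. The marker genes of the S1 and S2 proximal tubule also had lower means, 11 of 11 measured, with 1 past the threshold, the organic anion transporter gene Slc22a6, and a median difference of -0.40. Their median per array was -0.53, -0.15, -0.45 and -0.58 in 28-week replicates 6, 7, 8 and 9, against -0.12 to 0.10 in the 8-week mice. Slc22a6 was called in 2 of the 8 limma fits without 1 array, with adjusted p up to 0.123. Markers of other segments moved in different directions. Of 6 measured S3 markers 4 had lower means (median -0.35), and Slc22a30 fell 3.48-fold and was called in all 8 fits without 1 array. Slc7a13, also lower, was dim, averaging 5.0 at 28 weeks and 5.4 at 8 weeks, below every array median. Cyp7b1 was higher without overlap, averaging 6.3 at 28 weeks and 5.9 at 8 weeks. Of 5 distal convoluted tubule markers 4 had lower means (median -1.84), and Pvalb fell 5.37-fold (adjusted p = 0.0462). Pvalb was called in only 1 of those 8 fits, the one without 28-week replicate 7, with adjusted p up to 0.165. Of 6 thick ascending limb markers 5 had higher means (median 0.63), and by limma none was called while 3 were higher and 1 lower at an unadjusted p under 0.05. The part of tubule cell content in the lower oxidation values was not tested.

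**Figure D2:**
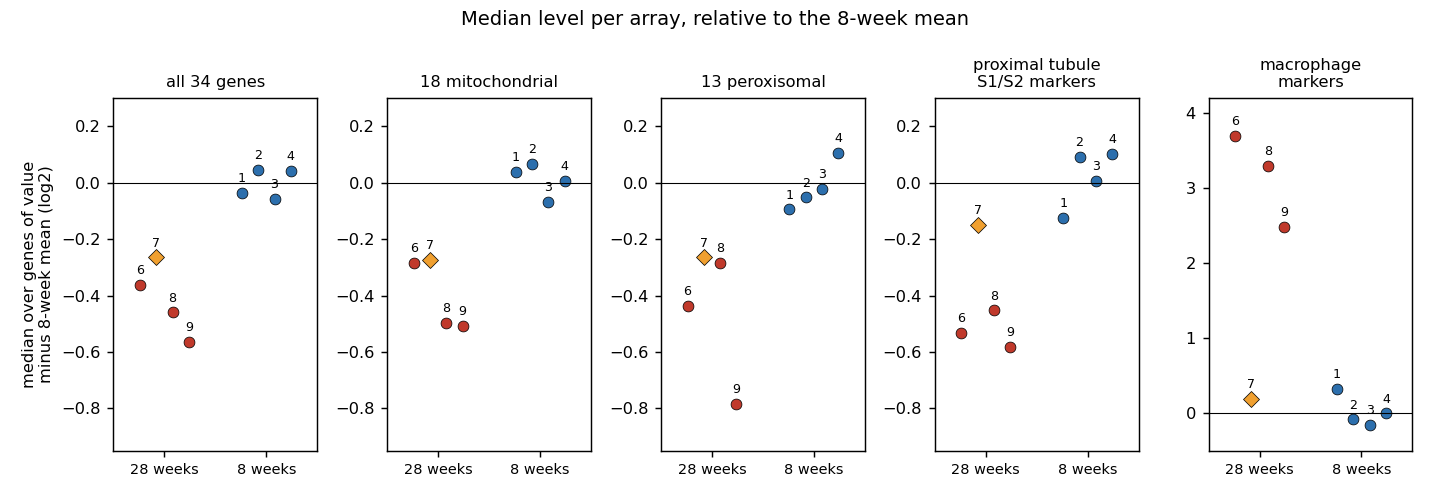
Median over genes of the log2 value minus the gene's 8-week mean, per array (points, numbered by replicate), for all 34 oxidation genes, the 18 mitochondrial and 13 peroxisomal ones, 11 proximal tubule S1/S2 markers and 11 macrophage markers, with 28 weeks on the left of each panel; the last panel has its own scale. Replicate 7 of the 28-week group (diamond) is at -0.27 for all 34 genes, below the 8-week mice, and at 0.19 for the macrophage markers, within their range.

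The promoters of 6 of these genes are printed to show the sequence ahead of genes that the results turn on. They are the 2 that fell, Cpt1a as the gate of the carnitine shuttle, Hadh as the later-step mitochondrial gene with the smallest p among those in the promoter table, and Etfdh, which had the opposite direction. Echs1 was added because its window holds both motifs searched, so the half-site is more frequent among those printed than among all 30. Each is the 250 bases before the RefSeq start site in GRCm38.p6, 5′ to 3′ on the strand of the gene. Capitals mark every exact AGGTCA on either strand (TGACCT where it lies on the other strand), the half-site that PPAR-alpha and related nuclear receptors bind.
Acox3, chr5:35582784-35583033, plus strand: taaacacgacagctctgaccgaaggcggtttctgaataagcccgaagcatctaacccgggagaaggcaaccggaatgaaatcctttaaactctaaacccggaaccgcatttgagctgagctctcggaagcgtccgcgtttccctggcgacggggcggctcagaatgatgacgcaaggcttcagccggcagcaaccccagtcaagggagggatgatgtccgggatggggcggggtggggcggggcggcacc
Nudt19, chr7:35555929-35556178, minus strand: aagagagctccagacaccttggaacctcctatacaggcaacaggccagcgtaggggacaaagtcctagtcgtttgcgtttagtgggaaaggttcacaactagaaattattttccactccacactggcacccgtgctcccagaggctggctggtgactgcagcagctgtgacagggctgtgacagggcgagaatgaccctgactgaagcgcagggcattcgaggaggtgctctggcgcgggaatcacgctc
Cpt1a, chr19:3323051-3323300, plus strand: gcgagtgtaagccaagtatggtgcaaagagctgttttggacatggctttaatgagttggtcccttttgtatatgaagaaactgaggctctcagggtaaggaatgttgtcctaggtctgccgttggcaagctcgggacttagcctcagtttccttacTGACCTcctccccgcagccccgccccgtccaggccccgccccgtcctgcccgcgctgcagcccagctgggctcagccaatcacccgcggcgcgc
Hadh, chr3:131272102-131272351, minus strand: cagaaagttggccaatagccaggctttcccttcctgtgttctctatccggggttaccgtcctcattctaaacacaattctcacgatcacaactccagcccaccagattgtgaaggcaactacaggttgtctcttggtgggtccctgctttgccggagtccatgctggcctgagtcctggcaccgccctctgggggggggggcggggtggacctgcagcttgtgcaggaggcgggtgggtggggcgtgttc
Etfdh, chr3:79628768-79629017, minus strand: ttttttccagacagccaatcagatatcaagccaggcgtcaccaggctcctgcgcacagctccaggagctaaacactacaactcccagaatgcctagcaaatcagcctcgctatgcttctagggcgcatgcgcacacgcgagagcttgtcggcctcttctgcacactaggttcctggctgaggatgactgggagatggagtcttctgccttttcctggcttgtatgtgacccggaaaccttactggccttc
Echs1, chr7:140116422-140116671, minus strand: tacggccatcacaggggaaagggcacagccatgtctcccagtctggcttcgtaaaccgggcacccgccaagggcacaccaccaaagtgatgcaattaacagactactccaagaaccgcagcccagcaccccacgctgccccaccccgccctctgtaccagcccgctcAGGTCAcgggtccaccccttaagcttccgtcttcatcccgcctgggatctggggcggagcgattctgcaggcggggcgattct
Cpt1a held its half-site 94 to 89 bases before the start and Echs1 83 to 78. The windows of Acox3, Nudt19, Hadh and Etfdh held no such letters. Promoters of 30 of the 34 genes were in the table, and 5 of them (16.7%) held an exact half-site in this window, those of Acadm, Acadvl, Cat, Cpt1a and Echs1, against 15.8% of 27025 genes with a promoter in the table. A pair of half-sites in direct repeat with 1 base between them, allowing up to 2 mismatches, was found in 3 of the 30 (Cat, Echs1 and Etfa) and in 3.72% of all genes. The pair in Cat and Echs1 overlaps their exact half-site. These matches describe the letters in the window only.

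Among the genes of activation and of the carnitine shuttle, Cpt1a had the largest difference. Acsm2, a medium-chain acyl-CoA synthetase of the mitochondrial matrix in the kidney, was at 17.30, 17.63, 17.28 and 17.36 in 28-week replicates 6, 7, 8 and 9, against 17.70, 17.91, 17.88 and 17.91 in 8-week replicates 1 to 4. The ages did not overlap, but the difference of -0.46 missed the threshold (adjusted p = 0.142). Acsm3, of the same enzyme family, was the dimmest of the 34 probes, averaging 5.07 ± 0.41 at 8 weeks, with a difference of -0.07 (adjusted p = 0.931). Cpt1a encodes the palmitoyltransferase of the outer mitochondrial membrane that forms the carnitine esters and is the regulated entry step. Its values were 13.23, 12.65, 12.91 and 13.02 in 28-week replicates 6 to 9, against 13.78, 13.54, 13.52 and 13.74 in 8-week replicates 1 to 4. All 28-week values were lower, replicate 7 the lowest of them, and the 1.62-fold lower mean had an adjusted p of 0.0757.

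The rest of the shuttle differed less. Cpt2, the palmitoyltransferase of the inner membrane that releases the chain to CoA again, averaged 10.78 ± 0.23 at 28 weeks and 11.34 ± 0.35 at 8 weeks (SD, n = 4 each here and below), at an adjusted p of 0.206. Slc25a20, the translocase that exchanges acylcarnitine for carnitine across the inner membrane, averaged 10.66 ± 0.36 at 28 weeks and 10.79 ± 0.46 at 8 weeks, a difference of -0.13 with an interval of -0.69 to 0.43. Crat, the acetyltransferase that frees CoA by moving acetyl groups to carnitine, had values of 12.13, 11.99, 11.66 and 11.75 in 28-week replicates 6 to 9, against 11.75, 12.12, 11.65 and 11.83 in 8-week replicates 1 to 4. The ages overlapped throughout in Crat, whose difference was 0.05 (interval -0.32 to 0.41).

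All 5 acyl-CoA dehydrogenases, which take the first electrons from the chain, had a lower mean at 28 weeks and none passed the threshold. Acadm, the medium-chain enzyme, was at 13.90, 13.56, 13.37 and 13.63 in 28-week replicates 6 to 9, against 14.13, 14.64, 13.87 and 14.29 in 8-week replicates 1 to 4. Replicate 6 of the 28-week mice reached just above the lowest 8-week value, and the mean was 1.53-fold lower (adjusted p = 0.149). Acads, the short-chain enzyme, was at 8.98, 9.54, 9.34 and 9.46 in 28-week replicates 6 to 9, against 10.02, 9.88, 9.69 and 9.74 in 8-week replicates 1 to 4. The ages did not overlap in Acads, at a 1.42-fold lower mean (adjusted p = 0.165). Acadl, for long chains, averaged 13.26 ± 0.11 at 28 weeks and 13.39 ± 0.16 at 8 weeks, and Acadvl, for very long chains, 12.16 ± 0.30 at 28 weeks and 12.33 ± 0.32 at 8 weeks, with differences of -0.14 (interval -0.44 to 0.17) and -0.17 (interval -0.63 to 0.29). Acad11, a family member active on longer chains, averaged 12.08 ± 0.47 at 28 weeks and 12.64 ± 0.15 at 8 weeks, at an adjusted p of 0.267. Its 28-week spread came from replicate 7, which was at 12.74, inside the 8-week range, while the other 3 were at 12.03 or lower, and without that array it was called (difference -0.78, adjusted p = 0.0249).

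The 7 genes of the later mitochondrial steps all had lower means, with a median difference of -0.52. In 4 of them the ages did not overlap, where 4.33% of all probes were lower without overlap. Hadh, the dehydrogenase of medium and short 3-hydroxyacyl-CoA, was at 15.09, 15.55, 15.30 and 14.98 in 28-week replicates 6 to 9, against 15.80, 15.72, 15.92 and 15.88 in 8-week replicates 1 to 4. Its mean was 1.52-fold lower at an adjusted p of 0.0996. Acaa2, the thiolase that releases acetyl-CoA, was at 14.37, 14.42, 13.91 and 13.65 in 28-week replicates 6 to 9, against 14.93, 14.73, 14.98 and 14.73 in 8-week replicates 1 to 4. All 28-week values were lower in both genes, and for Acaa2 the mean was 1.69-fold lower (adjusted p = 0.0954).

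The auxiliary enzymes for unsaturated chains followed the same direction. Eci1, the isomerase that shifts double bonds, was at 9.34, 9.06, 9.11 and 8.84 in 28-week replicates 6 to 9, against 9.61, 9.72, 9.52 and 9.59 in 8-week replicates 1 to 4, 1.44-fold lower in mean (adjusted p = 0.116). Decr1, the dienoyl-CoA reductase, was at 12.44, 12.09, 12.38 and 12.06 in 28-week replicates 6 to 9, against 12.75, 12.46, 12.49 and 12.64 in 8-week replicates 1 to 4, 1.27-fold lower in mean (adjusted p = 0.310). The ages did not overlap in either gene, although in Decr1 the gap between the nearest values was small. Echs1, the hydratase of short chains, averaged 13.40 ± 0.40 at 28 weeks and 14.03 ± 0.11 at 8 weeks, at an adjusted p of 0.152. Replicate 7 was at 13.97 in Echs1, within the 8-week range, and the other 28-week mice were at 13.29 or lower. Hadha and Hadhb, the subunits of the trifunctional protein that works on long chains, had the smallest differences of this group, -0.22 (interval -0.54 to 0.11) and -0.24 (interval -0.55 to 0.07). Hadha averaged 14.38 ± 0.05 at 28 weeks and 14.60 ± 0.23 at 8 weeks, and Hadhb 14.19 ± 0.15 at 28 weeks and 14.43 ± 0.11 at 8 weeks.

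The 2 measured genes of electron transfer had differences of opposite sign, and neither passed the threshold. Etfdh, the inner-membrane dehydrogenase that passes electrons from the electron transfer flavoprotein to ubiquinone, was at 14.02, 14.07, 13.92 and 14.08 in 28-week replicates 6 to 9, against 13.43, 13.80, 13.75 and 13.67 in 8-week replicates 1 to 4. Every 28-week value was higher, replicate 7 included, and the mean was 1.28-fold higher without passing the threshold (adjusted p = 0.235). Etfa, the alpha subunit of the flavoprotein itself, averaged 14.82 ± 0.15 at 28 weeks and 14.98 ± 0.05 at 8 weeks, a difference of -0.15 (interval -0.45 to 0.14). The interval of the Etfdh difference was 0.06 to 0.66.

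**Figure D3:**
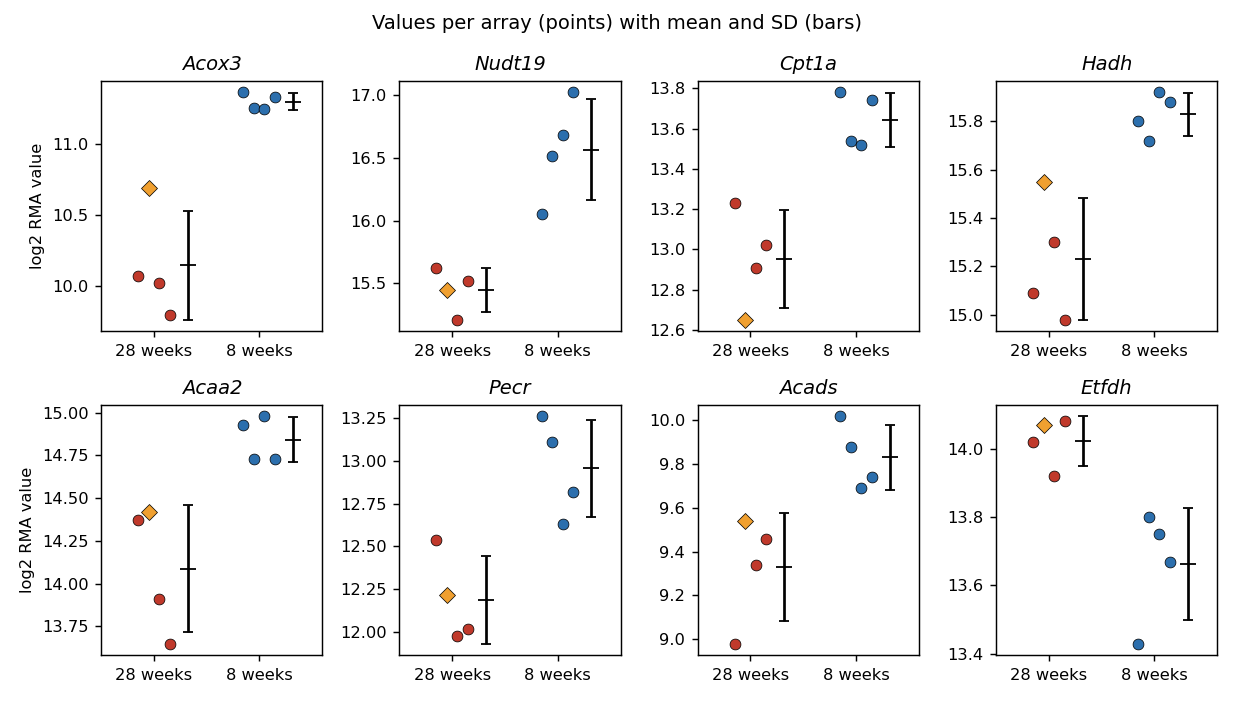
Log2 RMA value of 8 genes per array (points; the diamond is 28-week replicate 7), 28 weeks left of 8 weeks, with the mean and SD of 4 arrays as bars at the right of each group and a separate scale for each gene. In Acox3, Nudt19, Cpt1a, Hadh, Acaa2, Pecr and Acads the 28-week values all lie below the 8-week values, and in Etfdh, at 13.92 to 14.08 at 28 weeks, they all lie above.

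The strongest differences were in the peroxisome. Acox3 was at 10.07, 10.69, 10.02 and 9.80 in 28-week replicates 6 to 9, against 11.36, 11.25, 11.24 and 11.33 in 8-week replicates 1 to 4. The 8-week mice were nearly alike, every 28-week mouse was lower, and replicate 7 was nearest to the young mice. The log2 difference was -1.15 ± 0.19 (SE, adjusted p = 0.0309). Nudt19, which hydrolyses CoA and its esters and is an abundant CoA diphosphohydrolase of mouse kidney peroxisomes, was at 15.62, 15.45, 15.21 and 15.52 in 28-week replicates 6 to 9, against 16.05, 16.51, 16.68 and 17.02 in 8-week replicates 1 to 4. Here replicate 7 was as low as the other 28-week mice, and the spread lay among the 8-week mice. The log2 difference was -1.12 ± 0.21 (SE, adjusted p = 0.0423). Neither call held in most of the 8 fits that left out 1 array. Acox3 was called in 1 of them, the one without 28-week replicate 7 (adjusted p = 0.000875), and its adjusted p was up to 0.119 in the others. Nudt19 was called in 2 of 8, those without 28-week replicate 7 (adjusted p = 0.0233) or without 8-week replicate 1, and reached 0.135 otherwise.

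All 10 genes of peroxisomal oxidation had lower means, with a median difference of -0.58. Pecr, the peroxisomal trans-2-enoyl-CoA reductase, was at 12.54, 12.22, 11.98 and 12.02 in 28-week replicates 6 to 9, against 13.26, 13.11, 12.63 and 12.82 in 8-week replicates 1 to 4. Phyh, the phytanoyl-CoA hydroxylase that begins alpha-oxidation of branched chains, was at 13.57, 14.19, 13.85 and 13.47 in 28-week replicates 6 to 9, against 14.78, 14.45, 14.35 and 14.24 in 8-week replicates 1 to 4. Neither gene overlapped between the ages, at means 1.70-fold lower for Pecr (adjusted p = 0.0892) and 1.61-fold lower for Phyh (adjusted p = 0.122), and in Phyh replicate 7 was just below the lowest 8-week value. Acaa1a, a peroxisomal thiolase, was at 10.40, 11.17, 10.81 and 10.73 in 28-week replicates 6 to 9, against 11.31, 11.33, 11.47 and 11.51 in 8-week replicates 1 to 4, 1.54-fold lower in mean (adjusted p = 0.115). Its near-identical paralog Acaa1b averaged 8.52 ± 0.56 at 28 weeks and 9.14 ± 0.38 at 8 weeks, and because probes may share signal between such copies their separate values are uncertain.

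Ehhadh, the bifunctional hydratase and dehydrogenase that responds to PPAR-alpha in liver, averaged 15.46 ± 0.44 at 28 weeks and 15.99 ± 0.15 at 8 weeks, at an adjusted p of 0.277. Its 28-week mice were split, with replicate 6 at 16.09, within the 8-week range, and replicates 7, 8 and 9 at 15.11 to 15.45, below it. Hsd17b4, the bifunctional enzyme for branched chains and bile acid precursors, averaged 12.62 ± 0.18 at 28 weeks and 12.81 ± 0.14 at 8 weeks, a difference of -0.19 (interval -0.51 to 0.14). Decr2, the peroxisomal dienoyl-CoA reductase, had a difference of -0.53 (adjusted p = 0.230) and Eci2, an enoyl-CoA isomerase found in both organelles, one of -0.35 (adjusted p = 0.283). Cat, the gene of catalase, was at 17.81, 18.32, 18.13 and 17.74 in 28-week replicates 6 to 9, against 18.17, 18.13, 18.24 and 18.19 in 8-week replicates 1 to 4 (adjusted p = 0.669). Its probe is near the top of the range of deposited values, and whether differences are compressed there was not tested. In Cat replicate 7 was above every 8-week mouse.

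Abcd3, Crot and Pex11a were grouped with Nudt19 as genes that serve import, export and peroxisome number, and none of the 3 passed the threshold. Abcd3, an ABC transporter that imports long-chain acyl-CoA and dicarboxylic and branched-chain esters, was at 14.29, 14.31, 14.25 and 14.22 in 28-week replicates 6 to 9, against 13.84, 14.11, 14.25 and 14.54 in 8-week replicates 1 to 4. The 28-week mice lay within a narrow band inside the 8-week range, and the difference was 0.08 (interval -0.28 to 0.44). Crot, the octanoyltransferase that exports shortened chains as carnitine esters, averaged 14.54 ± 0.28 at 28 weeks and 14.58 ± 0.25 at 8 weeks, a difference of -0.04 (interval -0.45 to 0.38). Pex11a, a factor of peroxisome elongation and division, averaged 9.54 ± 0.19 at 28 weeks and 9.71 ± 0.40 at 8 weeks, a difference of -0.17 (interval -0.63 to 0.29). These intervals exclude a 2-fold change in either direction. The interval of Pex11a includes the median difference of the 34 genes, -0.48, and those of Abcd3 and Crot end above it.

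By organelle, the 18 mitochondrial genes had a median difference of -0.40, with 17 negative and 7 lower without overlap and 1 higher, and by limma none was called while 10 were lower at an unadjusted p under 0.05. The 13 peroxisomal genes had a median of -0.53, with 12 negative, 5 lower without overlap and 2 called. The 3 genes with products in both had a median of -0.35. Over all probes 4.33% were lower without overlap, 0.522% were called lower and 6.63% were lower at an unadjusted p under 0.05. The median over the mitochondrial genes was -0.28, -0.28, -0.50 and -0.51 in 28-week replicates 6 to 9 and that over the peroxisomal genes -0.44, -0.27, -0.28 and -0.78, against -0.07 to 0.07 and -0.10 to 0.10 in the 8-week mice. Both medians were lower in all 4 mice at 28 weeks than in any at 8 weeks, and no test of the difference between them was made. The spread between mice was larger at 28 weeks than at 8 weeks in 21 of the 34 genes, with a median SD of 0.24 at 28 weeks and 0.16 at 8 weeks, whereas over all probes it was larger at 28 weeks in 42.2% and the median SD was 0.23 at 28 weeks and 0.27 at 8 weeks.

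**Figure D4:**
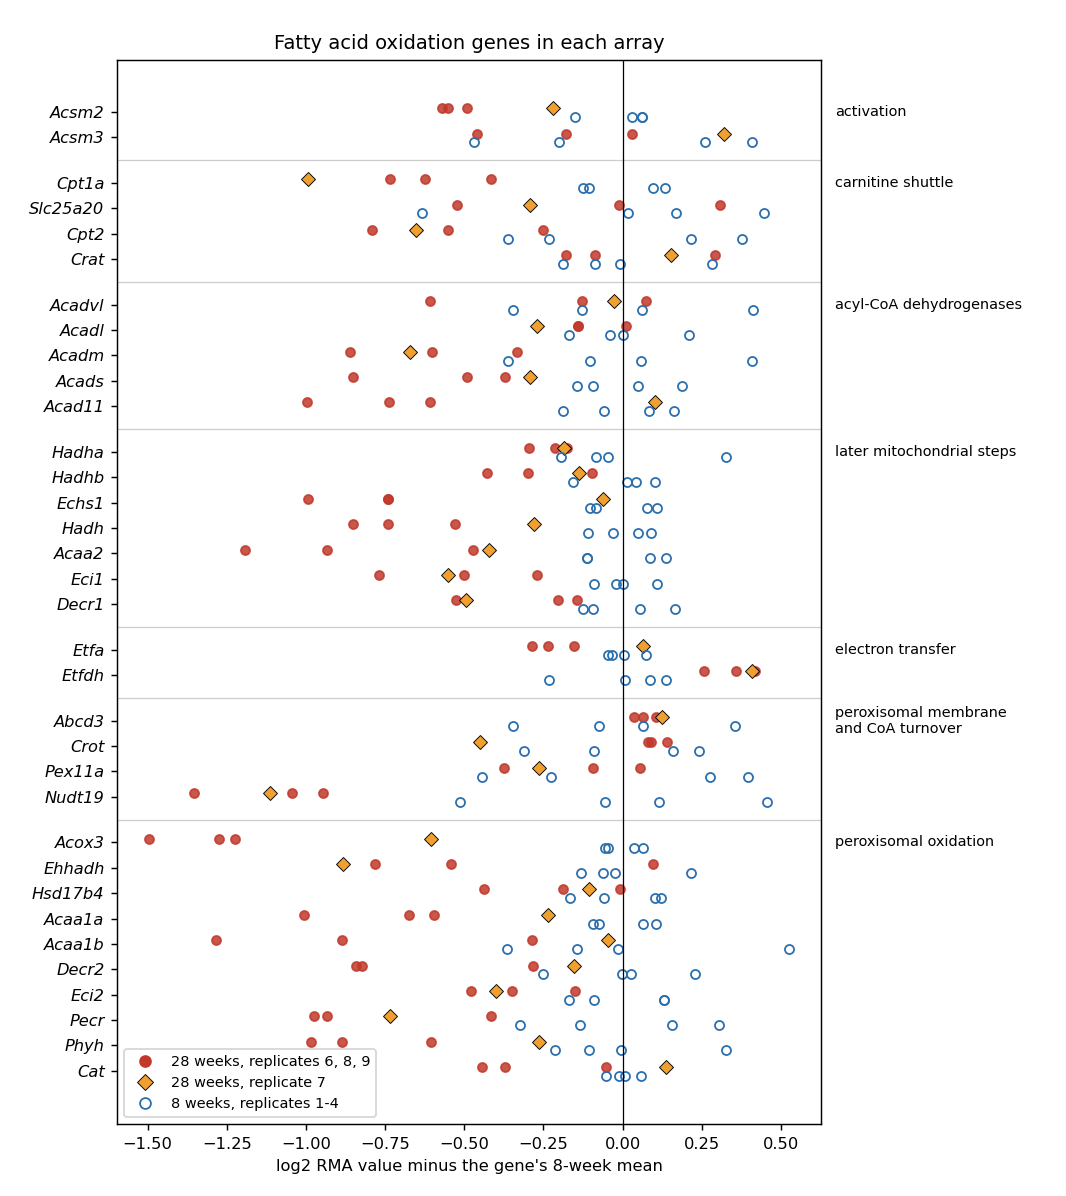
Log2 value minus the gene's 8-week mean for each of the 34 genes (rows, grouped by step), with one point per array: filled circles for 28-week replicates 6, 8 and 9, a diamond for 28-week replicate 7 and open circles for the 8-week mice. The 28-week points lie left of the 8-week points without overlap in 12 genes and right of them in Etfdh, and the diamond lies among the open circles in genes such as Acad11 and Echs1 but left of them in Cpt1a, Nudt19 and Pecr.

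The genes differed in whether 28-week replicate 7 shared the lower level of its age group. In 18 of the 34 genes that mouse was below all 4 mice at 8 weeks, in 2 above all of them and in 14 within their range, where it was below in 16.4% and above in 18.1% of all probes. The other 3 mice at 28 weeks were all below the 8-week mice in 16 genes (7.8% of all probes) and all above in 1 (9.47%). In Cpt1a the log2 difference from the 8-week mean was -0.995 for replicate 7 and -0.59 for the mean of the other 3. In Pecr these differences were -0.73 for replicate 7 and -0.78 for the others. In Echs1 they were -0.06 for replicate 7 and -0.83 for the others, and in Acad11 0.10 for replicate 7 and -0.78 for the others. Without replicate 7 the number of genes called was 8, all lower, and beside Acox3 and Nudt19 these were Acad11, Echs1, Hadh, Acaa2, Acaa1a and Phyh. Without it 1.95% of all probes were called lower and 3.63% higher. Without both that array and 8-week replicate 1 the number was again 8, all lower, where 2.04% of all probes were called lower and 4.19% higher.

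Genes around the pathway were taken from lists that do not overlap the 34. Among 26 other mitochondrial genes of acyl-CoA metabolism 19 had a negative difference and none passed the threshold, with a median of -0.35. The 2 with the smallest p were the carnitine transporter gene Slc22a5, at 12.73 ± 0.19 at 28 weeks and 13.44 ± 0.20 at 8 weeks with an adjusted p of 0.0701, and the dehydrogenase family gene Acad12, 1.86-fold lower (adjusted p = 0.0776). Among 30 measured peroxisomal genes outside the 34, 25 had a negative difference, with a median of -0.31, and 2 fell. Over all probes 51.3% had a negative difference and 0.522% were called lower. Pxmp2, the gene of a channel protein of the peroxisomal membrane, fell 2.84-fold (adjusted p = 0.0384), and Nudt7, which like Nudt19 encodes a peroxisomal CoA diphosphohydrolase, was 6.02 ± 0.14 at 28 weeks and 6.74 ± 0.15 at 8 weeks, at an adjusted p of 0.0476. Each was called in 1 of the 8 fits without 1 array, the one without 28-week replicate 7, with adjusted p up to 0.135 for Pxmp2 and 0.147 for Nudt7. Nudt7 also lost its call with each array centred on its median (adjusted p = 0.0528) and with trend and robust priors (adjusted p = 0.0652). All 5 measured genes of ketone body metabolism had negative differences and none was called. The lowest p among them belonged to Aacs, the cytosolic acetoacetyl-CoA synthetase, 2.75-fold lower in mean (adjusted p = 0.0609), and to Bdh2, 2.22-fold lower (adjusted p = 0.105).

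Regulators and targets were mixed. Of 15 measured regulators 11 had a negative difference and none passed the threshold. Ppara, the receptor itself, was at 10.16, 11.25, 10.02 and 10.16 in 28-week replicates 6 to 9, against 11.29, 11.15, 11.19 and 11.39 in 8-week replicates 1 to 4. It was thus about 1 log2 unit lower in 3 of the 28-week mice and at the 8-week level in replicate 7 (adjusted p = 0.134, and adjusted p = 0.00193 without that array). The coactivator gene Ppargc1a averaged 14.65 ± 0.34 at 28 weeks and 14.68 ± 0.27 at 8 weeks, a difference of -0.03. Lpin1, which encodes lipin 1, a phosphatidate phosphatase and coactivator, and Sirt3, the mitochondrial deacylase, had lower means, by 2.01-fold for Lpin1 (adjusted p = 0.0740) and 2.38-fold for Sirt3 (adjusted p = 0.0965). Sirt3 was high in 8-week replicate 1, at 12.08, where the other 8-week mice were at 10.49 to 10.95.

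Of 16 PPAR-alpha targets outside beta-oxidation 11 had a negative difference and 2 fell. They were Slc25a42, the mitochondrial CoA transporter (2.47-fold, adjusted p = 0.0423), and Cyp4a14, a fatty acid omega-hydroxylase (2.11-fold, adjusted p = 0.0423). In the same list Ucp3, Fgf21, Cidec and Plin5 averaged between 2.88 and 4.1 at both ages. That is near the lowest deposited value of 2.31, so the signs of their differences carry little. Cyp4a14 was at 16.28, 16.75, 16.74 and 16.11 in 28-week replicates 6 to 9, against 17.19, 17.61, 17.57 and 17.81 in 8-week replicates 1 to 4, and its close paralogs may share probe signal. Slc25a42 was called in 1 of the 8 fits without 1 array and Cyp4a14 in 2, with adjusted p up to 0.125 for Slc25a42 and 0.140 for Cyp4a14. Pdk4, the kinase that restrains pyruvate entry and is another target, averaged 8.65 ± 1.11 at 28 weeks and 7.79 ± 0.48 at 8 weeks, at an adjusted p of 0.460 and with 10.18 in replicate 6. Synthesis and uptake genes were divided, and none passed the threshold. Of 11 synthesis genes 7 had a negative difference, with a median of -0.07. By the smallest p, higher means were found for the elongase gene Elovl6 (1.45-fold, adjusted p = 0.161) and the desaturase gene Scd1 (1.39-fold, adjusted p = 0.207). Of 12 uptake and binding genes 5 had a negative difference, with a median of 0.11. Fabp1, Fabp5 and Acsl6 of this list averaged between 3.39 and 4.15 at both ages, also near the lowest deposited value. The fatty acid binding protein gene Fabp4 was 2.32-fold higher in mean at 28 weeks (adjusted p = 0.0776) and the synthetase gene Acsl5 1.71-fold higher (adjusted p = 0.114). Both were nearest to the 8-week values in replicate 7. Among lower means, the desaturase gene Fads2 was 1.28-fold lower without overlap (adjusted p = 0.264), and the binding protein gene Fabp3 was 1.74-fold lower (adjusted p = 0.133, and adjusted p = 0.0106 without replicate 7). These 2 were chosen after their values were seen. Fabp4 is also expressed by endothelium and macrophages, and the part of the macrophage markers in its difference was not tested.

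**Figure D5:**
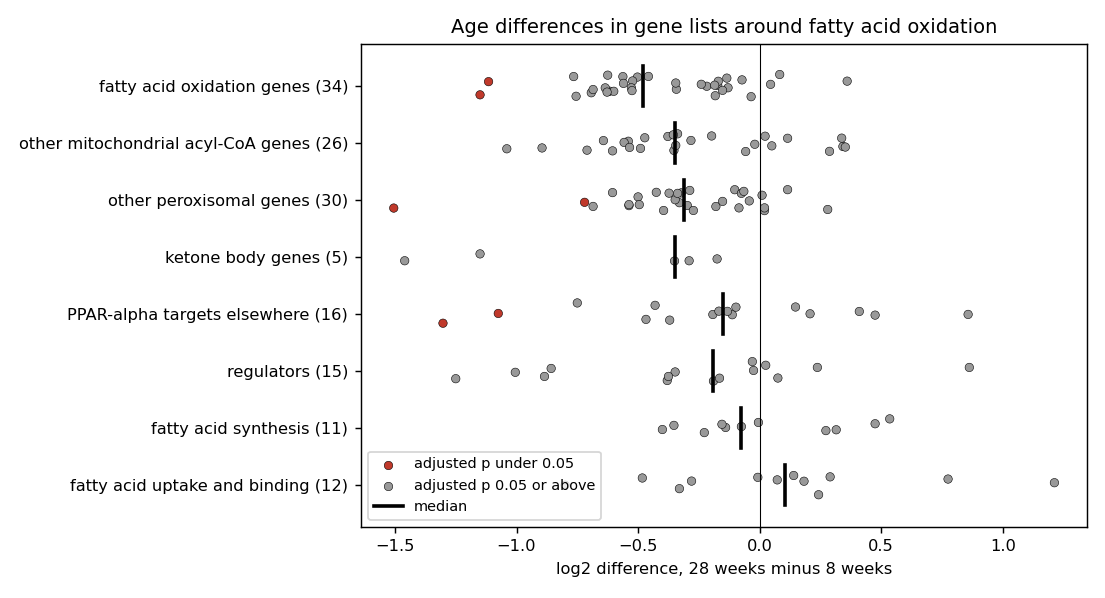
Log2 difference, 28 weeks minus 8 weeks, of each measured gene (points, with vertical jitter) in the 34 oxidation genes and in 7 lists around the pathway, with the number measured in parentheses; black bars are medians and red points have an adjusted p under 0.05. Medians run between -0.48 for the oxidation genes and 0.11 for uptake and binding, and the 6 red points are Acox3, Nudt19, Pxmp2, Nudt7, Slc25a42 and Cyp4a14.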

How the data were processed

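Kidney RNA of 8 mice was measured on 1-colour arrays, and the deposited log2 values were made by the authors with RMA, per the submitters' processing notes, with version and settings not given in the sources used here. RMA corrects background, normalizes between arrays and summarises probes; the log base was taken as 2 from that convention and the range of 2.31 to 19.89, and RMA compresses folds of dim probes and gives no detection call. Neither a batch nor a scan date is given in the sources used here, so neither was examined. The design text counts 4 mice per age. No label names an animal, so the p-values rest on the spread between these samples and take each as a separate mouse.

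Genes were named through the platform annotation (19572 of 22206 probes with 1 symbol, 2634 with none), and all 34 symbols matched RefSeq by gene identifier. Ages were compared with lmFit and eBayes in limma 3.58.1 (R 4.3.3; prior degrees of freedom 4.13) on all probes, without a filter. All 36 genes are named. Array values are given for those called, not overlapping, with the smallest p of their step, or among the 3 largest rises or falls. Outside that rule they are given for Cat, Ppara, Cyp4a14 and Slc5a6. From each list the called genes, or else the 2 with the smallest p, are named. Ppara, Ppargc1a and Pdk4 are named in any case. The members and lists were chosen with earlier results of these data known. In 5 simulated sets of 22206 probes, limma recovered 3.6% of genes shifted by 0.5 (log2), 52.8% by 1 and 94.4% by 2, with 7.8 false calls per set. Alternatives covered normalization, dim probes, variance models, thresholds and single arrays. Python 3.11.15, pandas 2.3.3 and matplotlib 3.10.9 made tables and figures.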

Additional observations from a re-analysis of the deposited data

Results flagged for a closer look

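In 68 groups of 4 values (34 genes at 2 ages) 2 had one array far from the other 3, where chance flags about 1 group in 20. Crot in 28-week replicate 7 was at 14.13, with the other 28-week mice at 14.66 to 14.72. Acsm2 in 8-week replicate 1 was at 17.7, with the other 8-week mice at 17.88 to 17.91. Among the genes around the pathway, Ppara in 28-week replicate 7 was at 11.25 and the other 28-week mice at 10.02 to 10.16. Acsl5 stood apart in 28-week replicate 7, at 11.39 with the others of that age at 12.17 to 12.3, and in 8-week replicate 3, at 10.94 with the others at 11.32 to 11.35.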

How the results depend on the processing

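No paired analysis was possible because the ages share no replicate number. The median difference of the 34 genes, -0.48, moved by less than the spread between arrays in all 20 alternatives. Some of these could not move it: other thresholds, the unequal-variance test, trend and robust priors and 1 probe per gene leave each gene's difference as it was. The median lay between -0.48 and -0.41 when single arrays were left out. The number of genes called, 2, was 6 with trend and robust priors, 7 with array weights and 6 at a threshold of 0.10. With unequal variances it was 0 (an unmoderated test, with 18 genes at an unadjusted p under 0.05). At a threshold of 0.01 it was 0, where 20 genes had an unadjusted p under 0.05 in limma. It was 8 with 8-week replicate 1 and 28-week replicate 7 both left out. The number ran between 0 and 8 over the fits that left out 1 array. In limma it was 0 without 8-week replicate 2, 3 or 4 or 28-week replicate 6, 8 or 9, where 13 to 19 genes had an unadjusted p under 0.05, 1 without 8-week replicate 1 and 8 without 28-week replicate 7. The number of all probes called, 215, was 399 without the dimmest 50% of probes, 399 with trend and robust priors, 873 with array weights, 0 with unequal variances (2568 at an unadjusted p under 0.05), 18 at 0.01, 689 at 0.10, 1384 without both arrays, and between 25 and 1237 without 1 array. The fit without the dimmest 50% tests fewer probes; the cause of the other moves was not tested. Signs changed in 5 of the 34 genes and in Ppargc1a, none of them called. Crat was -0.01625 with median centring, -0.0199 with array weights and -0.02 without both arrays. Crot was 0.00125 and Ppargc1a 0.0108 after quantile normalization. Abcd3 was -0.0318 with array weights and -0.0467 without both arrays, where Acsm3 was -0.27. Without single arrays, Crat lay between -0.0375 and 0.139, Crot between -0.138 and 0.103, Abcd3 between -0.0325 and 0.201, Acsm3 between -0.229 and 0.0642, Slc25a20 between -0.341 and 0.0192 and Ppargc1a between -0.171 and 0.109. A second probe could not be tried, since each gene had 1.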

Other observations

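Nudt19, Nudt7 and Slc25a42 all act on CoA, so a list of 16 genes of CoA metabolism was drawn up after their values were seen, and it supports nothing by its count. Of 14 measured, 10 had a negative difference, with a median of -0.33, and 4 fell: those 3 and Slc5a6, the sodium-dependent transporter of pantothenate, biotin and lipoate. Slc5a6 was at 8.33, 8.22, 8.08 and 8.19 in 28-week replicates 6 to 9, against 9.29, 9.72, 9.54 and 9.80 in 8-week replicates 1 to 4, 2.61-fold lower (adjusted p = 0.00653). It was called in all 8 fits that left out 1 array, and replicate 7 was as low as the other 28-week mice. Pank1, a pantothenate kinase gene, was 12.26 ± 0.18 at 28 weeks and 12.78 ± 0.29 at 8 weeks, at an adjusted p of 0.182, and Pank2, another one, 11.59 ± 0.25 at 28 weeks and 11.25 ± 0.30 at 8 weeks, at an adjusted p of 0.459. Vnn1, whose product pantetheinase returns pantothenate from CoA breakdown, was 1.68-fold lower in mean (adjusted p = 0.123).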
